A study of Mus musculus with 10 samples.

Results

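Of the 45037 probe sets that remained after 64 control probe sets had been left out, 86 measured receptors of smell, pheromone and taste. They were all probe sets whose platform annotation gave exactly 1 gene symbol beginning with Olfr and a digit, Vmn1r, Vmn2r, Tas1r or Tas2r, and they stood for 77 genes. Odorant receptors (Olfr) made up 44 of them, vomeronasal receptors 36 (26 Vmn1r and 10 Vmn2r) and taste receptors 6 (3 Tas1r and 3 Tas2r). The rule uses gene symbols and no signal, although it was drawn up with earlier results of these data known. A further 12 probe sets named a receptor together with other genes and were left out.

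Odorant receptors are G protein-coupled receptors, and a mature olfactory sensory neuron as a rule uses a single odorant receptor gene. The signal runs through the G protein subunit encoded by Gnal, adenylyl cyclase 3 (Adcy3) and a cyclic nucleotide-gated channel with Cnga2. Vomeronasal receptors detect pheromones and other social cues in the vomeronasal organ and signal through the channel Trpc2, whereas Tas1r receptors serve sweet and umami taste and Tas2r receptors bitter taste. Because the sensory cells that carry these receptors are not part of the hippocampus, most of the genes are thought to be silent there, so their probe sets show what the arrays read where little transcript is expected.

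The samples were whole hippocampi of female mice of the inbred strain Balb c/J, born on the same day and not carrying any transgene or treatment in the labels. The mice had been ranked by a composite of their open field behaviour over several days, an arena test of exploration. The titles placed 5 mice in High Exploration against 5 in Low Exploration, with 1 array for each mouse, and the age at death was not given in the sources used here. The submitted design text is about handled mice and the CA1 region, which is not this experiment, so groups and tissue follow the sample labels.

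All 77 receptor genes were found in the RefSeq gene table (GRCm38.p6), spread over 14 chromosomes. Both neighbouring genes had symbols beginning with Olfr, Vmn1r, Vmn2r, Tas1r or Tas2r for 44 of them. For 20 only 1 neighbour did, and for 13 neither did. Receptors under other symbols were not counted. The promoter table of RefSeq, with 250 bases before and 50 bases after the start of each gene, held 64 of the 77. The palindrome of TCCC and GGGA with any 2 bases between them is a form of the site bound by Ebf factors, which act on odorant receptor genes. On either strand it was in a window of 0 of these 64 genes and of 1.06% of all 27025 genes with a window. The homeodomain core TAATTA, a palindrome that does not overlap that site, was in 7 of 64 (10.9%) and in 6.12% of all. The windows around this core are shown, with TAATTA in capitals, for the 3 receptors that have it and whose signals are described further on.
Tas2r108, chr6:40493358-40493413, plus strand: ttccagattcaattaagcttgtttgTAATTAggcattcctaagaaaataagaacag
Vmn1r11, chr6:57137190-57137245, plus strand: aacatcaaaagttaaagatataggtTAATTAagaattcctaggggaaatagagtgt
Vmn2r84, chr10:130394332-130394387, minus strand: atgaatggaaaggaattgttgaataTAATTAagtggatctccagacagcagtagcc
A match of these letters is a description of the window and was not tied to any signal.

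The receptors lay in the lower part of every array, and their median read lower in all 5 High Exploration mice than in any Low Exploration mouse. Signals were MAS 5.0 values on a linear scale, in arbitrary units, which the authors had scaled so that the trimmed mean of every array was 500. The median signal of the 86 receptor probe sets was 69.0, 72.4, 60.7, 80.3 and 83.7 on the High Exploration arrays, against 142.7, 97.7, 118.6, 118.9 and 157.8 on the Low Exploration arrays. On the log2 scale the median averaged 6.18 ± 0.18 in High Exploration against 6.97 ± 0.27 in Low Exploration (SD, n = 5 each), without overlap. The median of all probe sets moved the same way, at 7.40 ± 0.20 in High Exploration against 7.94 ± 0.11 in Low Exploration, also without overlap. The receptors thus read lower together with the typical probe set of the same arrays. In bulk tissue a change in the number of cells of a type and a change in RNA per cell cannot be told apart.

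**Figure D1:**
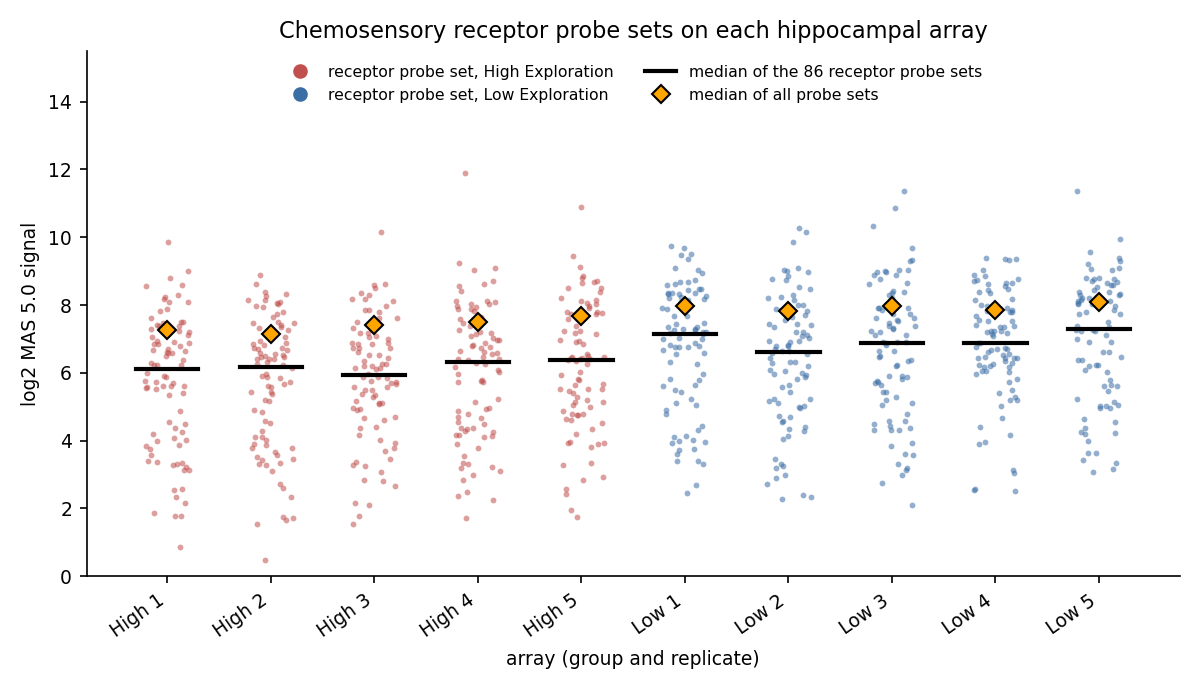
Log2 MAS 5.0 signal of each of the 86 receptor probe sets (points) on the 5 High Exploration and 5 Low Exploration arrays, with the median of the receptors (bar) and the median of all 45037 probe sets (diamond). The receptor median lay below the median of all probe sets on all 10 arrays, and the receptor medians of the 5 High Exploration arrays, at 5.92 to 6.39, lay below those of the 5 Low Exploration arrays, at 6.61 to 7.30.

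Relative to the rest of their own array, the receptors of the 2 groups overlapped. The median receptor stood at rank percentile 29.6 ± 2.48 of all probe sets in High Exploration against 32.2 ± 2.34 in Low Exploration. It lay −1.22 ± 0.19 log2 units from the array's median in High Exploration against −0.97 ± 0.18 in Low Exploration. Transcripts of bacterial and phage genes that are added to the hybridisation mix, read by 9 control probe sets, averaged 13.4 ± 0.313 on the log2 scale in High Exploration against 14.1 ± 0.298 in Low Exploration, so these controls were lower too, with overlapping groups. Measured from these controls the receptor median was −7.25 ± 0.23 in High Exploration against −7.09 ± 0.29 in Low Exploration, and the ranges overlapped.

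Most receptors were near the bottom of the scale, but not all. Sorted by mean log2 signal over the 10 arrays, 21 receptor probe sets fell in the lowest decile of all probe sets, 16 in the next and 1 in the highest. The mean of 65 of the 86 was at or below the median of all probe sets and that of 21 (24.4%) was above it. On 35 probe sets the signal exceeded the array's median on none of the 10 arrays, and on 4 it did so on every array. These 4 measured Olfr64, Vmn2r1, Vmn2r84 and Vmn1r148. A rank of signals does not order transcript amounts between genes, since probe sets bind with different strength.

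In the comparison of the groups, 76 of the 86 receptor probe sets had a lower mean in High Exploration against 10 a higher one, but none passed the test. The median difference of the receptors (High Exploration minus Low Exploration) was −0.81 on the log2 scale, a ratio of 0.572, with quartiles of −1.26 and −0.37. Over all probe sets the median difference was −0.47, a ratio of 0.722, and 69.0% were lower. Among the probe sets with a mean at or below the median, where most receptors lie, the median difference was −0.62 and 76.1% were lower. Receptors in the upper part of all probe sets by mean signal had a median difference of −0.85 (19 of 21 lower) and the others −0.76 (57 of 65 lower), so the direction was the same on both sides of that mark.

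With limma, fitted on log2 signal over all 45037 probe sets with p adjusted by Benjamini-Hochberg and called under 0.05, 0 of 86 receptor probe sets were lower and 0 were higher in High Exploration. Of all probe sets 0.0644% passed as lower and 0.00666% as higher. At an unadjusted limma p under 0.05, 21 receptors (24.4%) were lower, beside 16.8% of all probe sets, and 0 were higher, beside 4.48% of all. All 5 High Exploration signals lay below all 5 Low Exploration signals for 6 receptors (6.98%), beside 4.84% of all probe sets, and no receptor had the opposite order, beside 1.17% of all. The smallest adjusted p of a receptor was 0.0996, for Olfr558.

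The size of the receptor difference depended on how arrays were set against each other. With the hybridisation controls set equal, the median difference was −0.18 for the receptors, of which 50 of 86 were lower, and 0.16 for all probe sets, of which 43.0% were lower. The receptor median was −0.30 after quantile normalisation, −0.27 after centring each array on its median and −0.26 after cyclic loess. Of the 86 receptors 53, 54 and 53 were lower, in that order. Over all probe sets the median was then −0.022, 0.066 and −0.0077, with 51.0%, 47.1% and 50.4% lower. In these scalings too no receptor passed the limma threshold. With quantiles, median centring, loess and equal controls, in that order, 5, 7, 5 and 5 of 86 receptors were lower at an unadjusted limma p under 0.05. Over all 45037 probe sets these counts were 3089, 2300, 3102 and 1658. At the same p 0 receptors were higher in each, beside 3337, 5587, 3371 and 5891 of all. How far the constant scaling or the hybridisation step accounts for the lower receptor signals was not tested.

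**Figure D2:**
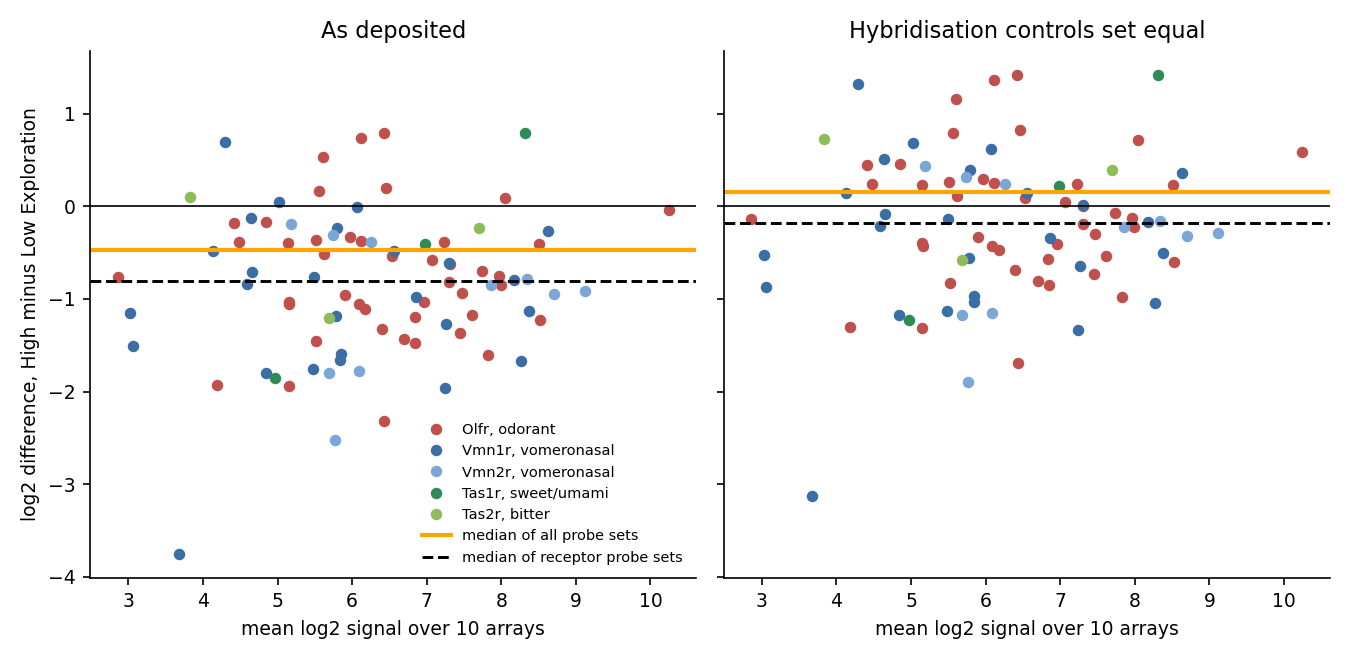
Log2 difference between High Exploration and Low Exploration (vertical axis) against mean log2 MAS 5.0 signal over the 10 arrays (horizontal axis) for the 86 receptor probe sets, coloured by family, as deposited (left) and with the hybridisation controls set equal (right). Lines give the medians of all probe sets and of the receptors, which lay at −0.47 and −0.81 as deposited and at 0.16 and −0.18 with equal controls.

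Among the odorant receptors, 38 of 44 probe sets were lower in High Exploration, with a median difference of −0.76. The median of the family on an array was 6.36 ± 0.26 log2 units in High Exploration against 7.10 ± 0.37 in Low Exploration, without overlap. With equal hybridisation controls 24 of 44 were lower and the median difference was −0.13.

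Olfr64 had the highest mean signal of all receptor probe sets (rank percentile 90.5 among all probe sets). Its signals were 934, 323, 1138, 3792 and 1902 in High Exploration against 544, 1144, 2629, 644 and 2661 in Low Exploration. The groups overlapped widely, and the difference was −0.04 ± 0.69 (SE; limma adjusted p = 0.98). The gene next to it, Olfr65, gave 116, 134, 119, 96.0 and 211 in High Exploration against 354, 229, 240, 285 and 386 in Low Exploration. All High Exploration mice were below all Low Exploration mice, with a difference of −1.17 ± 0.38 (limma adjusted p = 0.152) as deposited and −0.54 with equal hybridisation controls.

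Olfr558, whose human counterpart responds to short-chain fatty acids, was the receptor with the smallest p. Its signals were 23.4, 36.9, 58.4, 37.4 and 45.9 in High Exploration against 77.2, 256, 340, 143 and 277 in Low Exploration. Every High Exploration mouse was below every Low Exploration mouse, and the log2 mean was 5.27 ± 0.49 in High Exploration against 7.59 ± 0.87 in Low Exploration (SD, n = 5 each). The difference was −2.32 ± 0.49 (SE; limma adjusted p = 0.0996), and −1.69 with equal hybridisation controls. Olfr701 also separated the groups on 1 of its 2 probe sets, with 166, 274, 288, 167 and 365 in High Exploration against 733, 516, 518, 653 and 440 in Low Exploration, a difference of −1.23 ± 0.39 (limma adjusted p = 0.148). On the other probe set the groups overlapped, with a difference of −1.60 ± 0.62.

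Several odorant receptors known outside the nose or from their ligands were on the array. Olfr78, which is active in the carotid body and in vessels of the kidney, gave 157, 155, 105, 227 and 224 in High Exploration against 272, 368, 477, 419 and 74.6 in Low Exploration on its strongest probe set. Low Exploration mouse 5 was below all High Exploration mice and the other 4 Low Exploration mice above them, and the difference was −0.70 ± 0.54 (limma adjusted p = 0.45). Olfr16, which also occurs in sperm, gave 228, 331, 119, 341 and 80.9 in High Exploration against 285, 66.9, 641, 660 and 589 in Low Exploration, with overlapping groups. Olfr544, a receptor for azelaic acid, had 9.77, 181, 52.4, 178 and 150 in High Exploration against 108, 236, 73.0, 152 and 551 in Low Exploration, again overlapping. The eugenol receptor Olfr73 differed by −0.54 ± 0.97 and Olfr1507, also called MOR28, by −0.39 ± 0.74, both smaller than their standard errors. Olfr15 gave 290.3, 253, 382, 278 and 409 in High Exploration against 651, 210.5, 1286, 288 and 253 in Low Exploration, where 2 mice were above all others. Olfr17 gave 63.5, 23.9, 51.0, 109 and 51.1 in High Exploration against 329.7, 79.2, 166, 74.7 and 129 in Low Exploration, overlapping, with a difference of −1.32 ± 0.54. Olfr74, near the bottom of the scale, was at 4.51 to 17.4 in High Exploration against 9.98 to 165 in Low Exploration, a difference of −1.93 ± 0.66 (limma adjusted p = 0.155).

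The 6 odorant receptors with a higher mean in High Exploration had small or uneven differences. Olfr480 gave 90.5, 85.3, 70.5, 234 and 142 in High Exploration against 158, 26.5, 12.2, 110 and 212 in Low Exploration, a difference of 0.79 (limma adjusted p = 0.551). Olfr49 gave 96.5, 88.5, 68.6, 82.5 and 120 in High Exploration against 37.5, 62.4, 38.9, 259 and 19.0 in Low Exploration, a difference of 0.74 (limma adjusted p = 0.485). The Low Exploration mice were the more scattered in both, reaching below the High Exploration mice for Olfr480 and on both sides of them for Olfr49. Olfr870 was even in High Exploration, at 264 to 279 in High Exploration against 84.1 to 434 in Low Exploration, with a difference of 0.09. The other 3, Olfr690, Olfr315 and Olfr159, differed by 0.53 ± 0.65, 0.20 ± 0.72 and 0.16 ± 0.56, less than their standard errors.

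Among the vomeronasal receptors, 34 of 36 probe sets were lower in High Exploration. The 26 Vmn1r probe sets had a median difference of −0.90 (24 lower), with an array median of 5.44 ± 0.32 log2 units in High Exploration against 6.54 ± 0.49 in Low Exploration. The 10 Vmn2r probe sets had a median difference of −0.88 (all 10 lower), with 6.61 ± 0.35 in High Exploration against 7.55 ± 0.47 in Low Exploration. Neither family's array medians overlapped between the groups. With equal hybridisation controls 17 of 26 Vmn1r and 7 of 10 Vmn2r were lower, with medians of −0.28 and −0.25.

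Vmn2r1 belongs to a small group of vomeronasal receptors that many cells of the basal vomeronasal layer share, alongside a second receptor. It gave 515, 390, 232, 526 and 448 in High Exploration against 712, 1230, 830, 671 and 537 in Low Exploration. The groups just failed to overlap, with a difference of −0.91 ± 0.41 (limma adjusted p = 0.222). Vmn2r84, whose window is printed above, gave 198, 286, 316, 244 and 559 in High Exploration against 820.5, 520, 439, 520 and 668 in Low Exploration. High Exploration mouse 5 was among the Low Exploration mice, and the difference was −0.95 (limma adjusted p = 0.213). Vmn2r26, a receptor for peptide ligands of the MHC, differed by −0.39 ± 0.90 with overlapping groups. Vmn2r29 was at 177 to 331 in High Exploration against 189 to 863 in Low Exploration on its stronger probe set, a difference of −0.78 ± 0.45. On its weaker probe set it was at 15.4 to 60.4 in High Exploration against 51.7 to 261 in Low Exploration, a difference of −1.78 ± 0.54 (limma adjusted p = 0.143), and the groups overlapped there too.

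The pseudogene Vmn2r-ps54 was the receptor whose separation was least dependent on scaling. On 1 of its 2 probe sets it gave 3.46, 43.1, 24.3, 25.4 and 65.7 in High Exploration against 129, 103, 121, 171 and 138 in Low Exploration, a difference of −2.52 ± 0.67 (limma adjusted p = 0.126). It was also the only one of the 6 separating receptors whose groups still did not overlap after rescaling. With quantile normalisation, median centring, cyclic loess and equal hybridisation controls its difference was −1.88 to −1.99. In that order, 879, 549, 936 and 374 of all 45037 probe sets were lower without overlap, beside 1 of 86 receptors each time. On the second Vmn2r-ps54 probe set, which differed by −1.80 ± 0.78, the groups overlapped. Vmn2r-ps54 and Vmn2r1 are among the 10 of 77 receptor genes that overlap another gene in the annotation. What part of their signals such genes give was not tested.

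Vmn1r43 had the most negative difference of all 86, on signals close to the bottom of the scale. It gave 1.80, 2.93, 3.42, 7.16 and 3.90 in High Exploration against 117, 4.88, 166, 15.6 and 153 in Low Exploration. The 5 High Exploration mice were uniformly low, while Low Exploration mice 2 and 4 were low or nearly so and the other 3 were high, and the difference was −3.75 ± 0.92 (limma adjusted p = 0.119). Vmn1r172 gave 315, 43.1, 39.1, 53.5 and 93.8 in High Exploration against 321, 226, 232, 324 and 433 in Low Exploration, a difference of −1.96 ± 0.57 (limma adjusted p = 0.138). There only High Exploration mouse 1 was within the Low Exploration range. Vmn1r11, whose window is printed above, was low in both groups, at 3.29 to 17.2 in High Exploration against 6.70 to 37.5 in Low Exploration.

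Vmn1r148, Vmn1r42 and Vmn1r44 had the highest mean signals of their family. Vmn1r148 gave 272, 248, 363, 548 and 465 in High Exploration against 355, 466, 500.5, 354 and 529 in Low Exploration, a difference of −0.26. Vmn1r44 gave 378, 59.2, 116, 85.1 and 698 in High Exploration against 411, 428, 631, 461 and 984 in Low Exploration, a difference of −1.67 (limma adjusted p = 0.186). The groups overlapped for both, and Vmn1r44 varied more than 10 times among the High Exploration mice. Vmn1r42 gave 388, 308, 53.3, 418 and 213 in High Exploration against 494, 434, 522, 333 and 755 in Low Exploration, with overlap and a difference of −1.13 (limma adjusted p = 0.268). The x_at probe set of Vmn1r41, which can also bind related sequences, was at 9.84 to 25.4 in High Exploration against 18.8 to 144 in Low Exploration, a difference of −1.80 ± 0.56, and its other probe set, among the 3 lowest of all receptors, differed by −1.15 ± 0.48. Vmn1r29 and Vmn1r56 were the 2 members of the family with a higher mean in High Exploration, by 0.69 ± 0.67 and 0.05 ± 0.74.

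The taste receptors were too few for a statement on their families, and their array medians overlapped between the groups. Tas1r1, which pairs with Tas1r3 in the umami receptor, gave 11.9, 11.5, 10.3, 29.1 and 29.5 in High Exploration against 43.2, 32.0, 139, 52.7 and 73.5 in Low Exploration. The groups did not overlap, and the difference was −1.85 ± 0.52 (limma adjusted p = 0.134). Tas1r2, the partner of Tas1r3 in the sweet receptor, gave 134, 57.8, 173, 144 and 83.2 in High Exploration against 242, 259, 89.4, 119 and 98.2 in Low Exploration, with overlap.

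As deposited, Tas1r3 had a mean difference of the opposite sign to its partners. With equal hybridisation controls the differences were 1.42 for Tas1r3, 0.22 for Tas1r2 and −1.22 for Tas1r1, so only Tas1r1 kept the opposite sign. Tas1r3 gave 448, 474, 251, 607 and 402 in High Exploration against 383, 121, 1874, 140.5 and 68.0 in Low Exploration. The High Exploration mice were even and the Low Exploration mice spread above and below them, with a difference of 0.79 ± 0.77 (limma adjusted p = 0.552). Tas1r3 overlaps Dvl1, a gene of Wnt signalling, in the annotation. The strongest Dvl1 probe set had a mean of 13.8 log2 units and a difference of 0.27. Another Dvl1 probe set had a mean of 9.42 and a difference of −1.08. What part of the Tas1r3 signal Dvl1 gives was not tested.

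The bitter receptors overlapped between the groups in all 3 cases. Tas2r108, which responds to denatonium and whose window is printed above, gave 48.9, 212, 224, 376 and 297 in High Exploration against 177, 95.1, 214, 475 and 337 in Low Exploration. Tas2r119 gave 48.6, 103, 48.3, 7.92 and 23.1 in High Exploration against 102, 16.5, 56.3, 188 and 163 in Low Exploration. Tas2r105, the cycloheximide receptor, gave 46.2, 5.10, 6.95, 4.79 and 87.6 in High Exploration against 12.1, 7.43, 8.00, 37.0 and 18.4 in Low Exploration. Their differences were −0.23, −1.21 and 0.10.

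**Figure D3:**
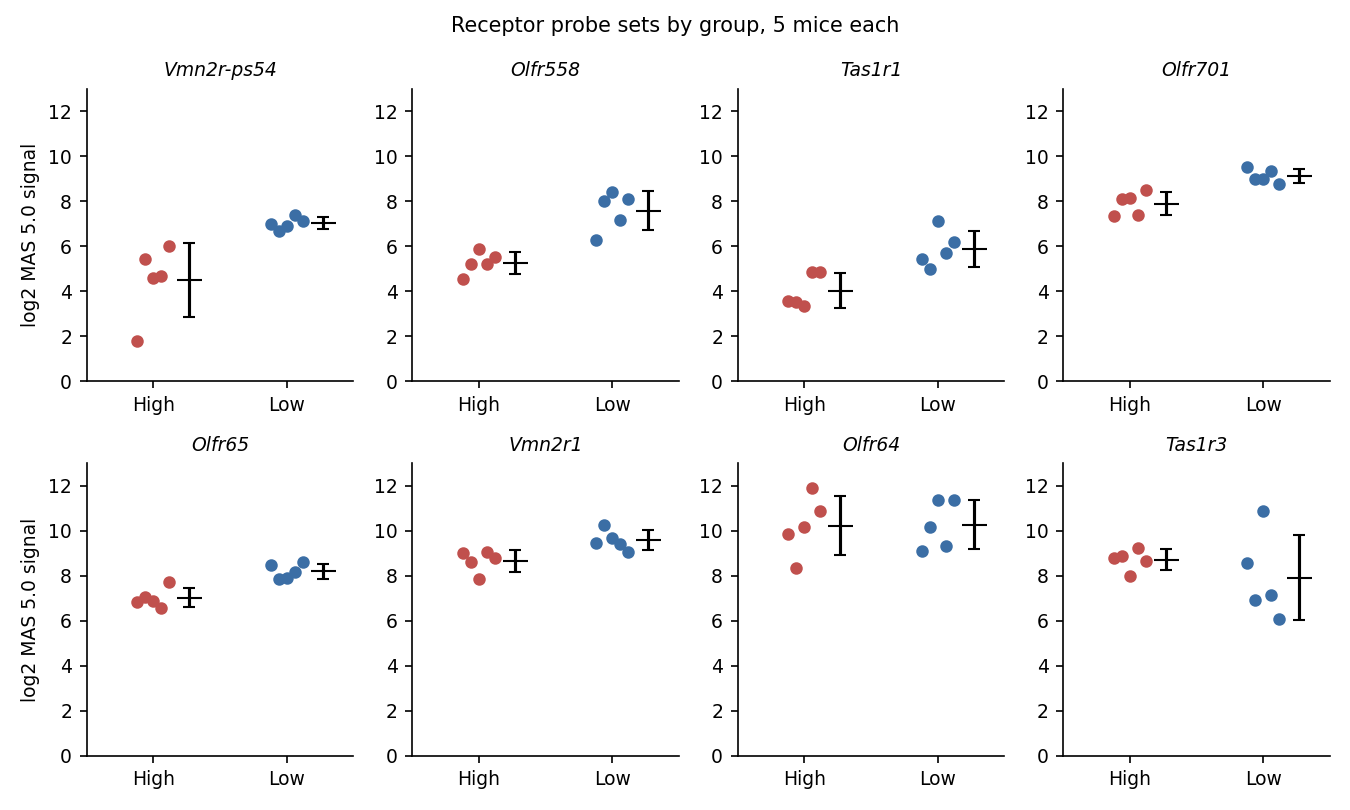
Log2 MAS 5.0 signal (vertical axis) of the 6 receptor probe sets whose groups did not overlap and of Olfr64 and Tas1r3, in 5 High Exploration and 5 Low Exploration mice (points), with the mean and SD beside each group. Differences ran from −2.52 for Vmn2r-ps54 to −0.91 for Vmn2r1 in the 6, and were −0.04 for Olfr64 and 0.79 for Tas1r3.

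Probe sets of 1 receptor gene often gave unlike signals. There were 7 genes with 16 probe sets among them, and the gap between a gene's highest and lowest mean had a median of 0.698 log2 units. It was smallest for Vmn2r-ps54, at 0.0824, and widest for Olfr78, whose 4 probe sets had means from 7.74 to 2.86, a gap of 4.88. The lowest Olfr78 probe set gave 48.4, 1.38, 4.46, 3.32 and 5.43 in High Exploration against 5.45, 6.62, 4.28, 5.89 and 83.2 in Low Exploration. High Exploration mouse 1 and Low Exploration mouse 5 were far above the rest there, whereas on the strongest probe set of the gene mouse 1 was within its group and mouse 5 was the lowest of its own.

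Receptors also varied more from mouse to mouse than the typical probe set, but about as much among those at or below the median mean. The residual SD of log2 signal within groups had a median of 1.14 for the receptors and 0.975 for all probe sets. At or below the median mean it was 1.20 for receptors and 1.22 for all probe sets, and above that mean 0.806 and 0.716. Over the 86 receptors, the correlation of log2 signal between 2 arrays ran from 0.411 to 0.691 over the 45 pairs, with a median of 0.599, against 0.701 to 0.837 with a median of 0.767 over all probe sets. The points of each correlation share their arrays and their probes. The receptors kept a common order across mice in part only, and the median was 0.579 for pairs within a group and 0.611 for pairs between groups. No correlation was computed over the probe sets at or below the median mean alone.

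The spread among the receptors of an array did not separate the groups, unlike the spread among all probe sets. The SD of log2 signal over the 86 receptors was 1.92 ± 0.080 in High Exploration against 1.85 ± 0.13 in Low Exploration, with overlap. Over all probe sets it was 2.42 ± 0.082 in High Exploration against 2.18 ± 0.050 in Low Exploration, without overlap. The receptor value rested on very low signals. With signals under 23.0, the 10th percentile of the whole table, raised to that level, it was 1.45 ± 0.11 in High Exploration against 1.60 ± 0.14 in Low Exploration, the reverse order, and the groups overlapped either way. With the same floor the SD over all probe sets was 2.24 ± 0.050 in High Exploration against 2.08 ± 0.036 in Low Exploration, still without overlap. Such signals made up 25.8% of receptor values in High Exploration against 15.6% in Low Exploration, and over all probe sets 12.6% of values in High Exploration against 7.44% in Low Exploration.

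The receptors can serve as a line above which an array reads more than nearly all genes thought to be silent. The 95th percentile of the 86 receptors was a signal of 369 ± 57.5 in High Exploration against 583 ± 63.3 in Low Exploration, without overlap. On High Exploration arrays 26.6% to 31.1% of the other probe sets lay above it (mean 28.3% ± 2.01) and on Low Exploration arrays 22.1% to 26.5% (mean 23.9% ± 1.88). Every High Exploration array thus had a larger share above its own line, but the ranges nearly met. With the line at the 90th percentile of the receptors the groups overlapped, at 34.5% ± 2.25 in High Exploration against 30.6% ± 2.01 in Low Exploration, and likewise at the 99th, at 19.4% ± 4.10 in High Exploration against 13.3% ± 5.37 in Low Exploration.

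**Figure D4:**
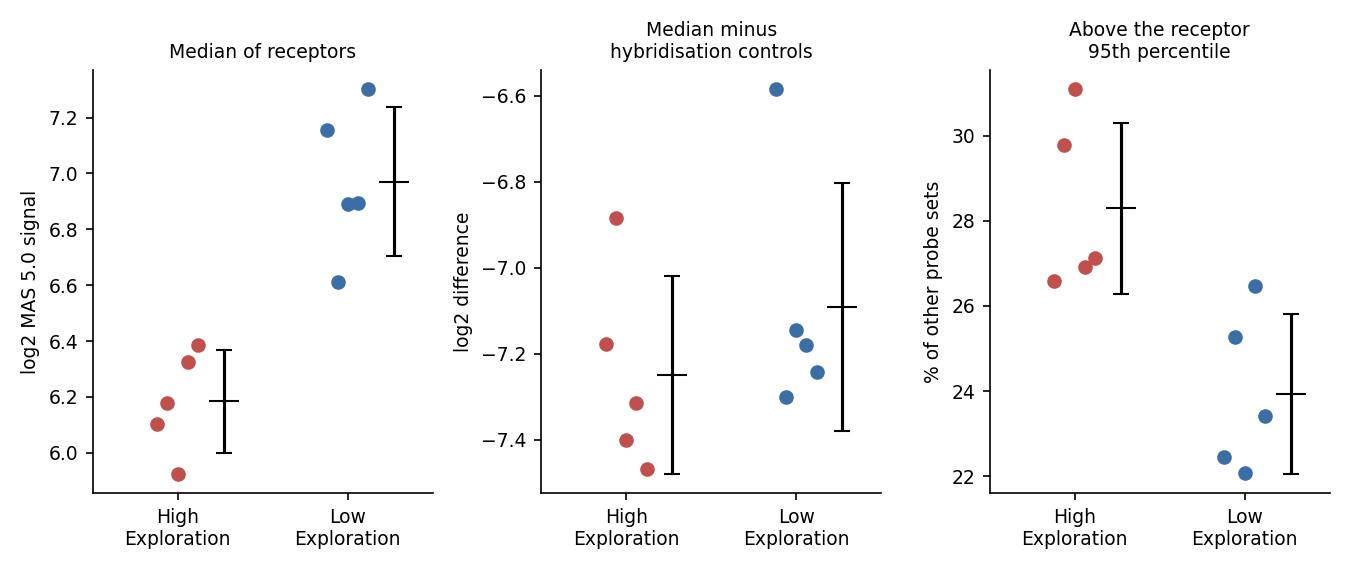
Measures of the 86 receptors on each array (points), with the mean and SD of the 5 High Exploration and 5 Low Exploration arrays beside them: the median log2 MAS 5.0 signal, its log2 distance from the hybridisation controls, and the percentage of other probe sets above the 95th percentile of the receptors. The groups did not overlap in the first and the last, and overlapped in the second, at −7.25 ± 0.23 in High Exploration against −7.09 ± 0.29 in Low Exploration.

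Genes known from the hippocampus were mostly above the receptor line, each read by its probe set with the highest mean. That choice favours these genes, since the line rests on all receptor probe sets, weak ones included. Whether these genes tell the hippocampus from other brain tissue was not tested. Of 10 markers of hippocampal neurons, 9 were above it on all 10 arrays and Prox1, a marker of dentate granule cells, on 1 array. All 4 astrocyte markers and, among 3 measured oligodendrocyte markers, Mbp and Mobp were above it on every array, while Mog was on none. Of 3 microglial markers, Csf1r was above it on all arrays, C1qa on 3 and Cx3cr1 on none. The line therefore does not tell every gene used in this tissue from a silent one.

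The signalling partners of odorant receptors fell on both sides of the receptor line. Of 12 genes for olfactory transduction and receptor trafficking, 9 had a probe set of their own. Gng13, a G protein subunit, and Adcy3 were above the receptor line on all 10 arrays, and Gnal on 9. The channel subunits Cnga2 and Cnga4, and Stoml3, were above it on none, at mean log2 signals of 6.08, 4.37 and 6.40. Omp, the marker of mature olfactory sensory neurons, was above it on 2. None of the 9 passed limma in either direction, and their median difference was −0.36, with 7 of 9 lower in High Exploration as deposited and 3 of 9 with equal hybridisation controls.

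Genes listed as markers of the sensory cells gave no group difference that passed the test. Gnal, Adcy3, Gnai2, Gnao1 and Gng13 stood at rank percentiles of 91.9 to 98.2 in these hippocampi. Sums that include them cannot be read as amounts of sensory cells. The summed signal of 7 measured markers of olfactory sensory neurons (of 10 listed) was 11587 to 32245 in High Exploration against 8277 to 27597 in Low Exploration. Gng13, at 4429 to 30244 in High Exploration against 2434 to 25934 in Low Exploration, was the largest part of most of these sums, while 5 of the 7 markers had a lower mean in High Exploration. Omp, Cnga2, Cnga4 and Stoml3 together made up 370 to 818 in High Exploration against 372 to 1058 in Low Exploration. For 3 of 5 vomeronasal markers the sum was 1918 to 4667 in High Exploration against 3108 to 5973 in Low Exploration. Most of it came from Gnai2 and Gnao1, which were above the receptor line on 10 and 9 arrays. Trpc2 gave only 36.0 to 428 in High Exploration against 237 to 619 in Low Exploration. For 5 of 7 taste cell markers the sum was 807 to 1465 in High Exploration against 1039 to 1816 in Low Exploration. All of these sums overlapped. Trpc2, the vomeronasal channel, had 6.64 ± 1.37 log2 units in High Exploration against 8.76 ± 0.54 in Low Exploration, a difference of −2.12 ± 0.62 (limma adjusted p = 0.139), and was above the receptor line on 1 array. Of 6 measured genes of taste and vomeronasal transduction (of 8 listed), 4 were lower, with a median difference of −0.36, and 0 passed.

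Other gene families that a hippocampus is mostly not expected to use read low as well, with exceptions. The 104 probe sets of keratins and keratin-associated proteins stood at a median rank percentile of 30.02, beside 23.7 for the receptors, with a median difference of −0.70 (82 lower). For 21 beta-defensin probe sets these were 22.2 and −0.76 (17 lower), and for 21 placental prolactins 33.1 and −0.90 (16 lower). The 11 casein probe sets stood at 41.03 with −1.13 (10 lower), and the single probe set of a trace amine-associated receptor at 24.8 with −0.36. The 3 probe sets of formyl peptide receptors stood at 48.8 with −0.90 (3 lower). Above the receptor line on all 10 arrays were 4 keratin probe sets (Krt12, Krt81, Krt222 and Krt42) and 1 of a formyl peptide receptor (Fpr2), named here after their values were seen. With equal hybridisation controls the medians of the keratins, defensins, prolactins and caseins were between −0.50 and −0.07, beside −0.18 for the receptors, and 0 probe sets of these families passed limma. No test set these families against the receptors.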

How the data were processed

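Hippocampal RNA of 10 mice was biotin-labelled and read on Affymetrix mouse expression arrays. The labels name Qiagen columns and the standard protocol, whereas the methods name Qiagen columns or Trizol and double amplification, so extraction and amplification are not settled here. The intensity values deposited by the authors are MAS 5.0 signals from Affymetrix Expression Console 1.1, 1 value per probe set, linear and without normalisation of the distribution.

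Symbols came from the platform annotation (34958 probe sets with 1 symbol, 932 with several, 9211 with none). Log2 signals of all 45037 probe sets were compared with limma 3.58.1 in R 4.3.3 (lmFit and eBayes, no filter, no covariate) and adjusted by Benjamini-Hochberg. Values per array over the receptors are given as mean and SD without a test, as the receptors had been chosen with results known. The number of arrays limits the precision. The fit was tested on simulated data. Where a gene of a list had several probe sets, the one with the highest mean was used.

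Described receptors were the 10 highest and 3 lowest probe sets, the 10 lower and 10 higher with the smallest p, the top 3 of each vomeronasal and taste family, and a fixed set of known receptors. The members and lists were chosen with earlier results of these data known. Alternatives covered normalisation, filter, pseudocount, floor, variance model, array weights, probe set choice and leaving out each array. Sequences are from RefSeq (GRCm38.p6).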

Additional observations from a re-analysis of the deposited data

Results flagged for a closer look

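In 5 of the 94 groups of 5 mice examined, 1 mouse lay farther from its neighbours than Dixon's 95% critical value allows, and chance alone is expected to do this in about 1 group in 20. Tas2r108 was at 5.61 log2 units in High Exploration mouse 1, with the nearest other High Exploration mouse at 7.73. Vmn1r11 was at 4.10 in High Exploration mouse 4, with the nearest at 2.09. Olfr1507 was at 8.16 in Low Exploration mouse 2, with the nearest at 5.04. For Olfr78, Low Exploration mouse 4 was at 2.58 on one of its weaker probe sets (nearest 6.56), and Low Exploration mouse 5 was at 6.38 on its weakest probe set (nearest 2.73). No mouse was singled out for more than 1 probe set.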

How the results depend on the processing

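No receptor probe set passed limma under any alternative that was run. Over all probe sets 32 passed, against 3 with the filter on low signal, 1 each with quantile normalisation, median centring, equal hybridisation controls, cyclic loess or equal receptor medians (added after the data were seen), 58 with the pseudocount, 2 with the trended robust variance, and 0 to 50 with an array left out (50 without High Exploration mouse 5, 9 without High Exploration mouse 3, 6 and 2 without Low Exploration mice 1 and 3, and 0 without each of the other 6). The receptor median difference of −0.81 became −0.30 with quantiles, −0.27 with median centring, −0.18 with equal hybridisation controls and −0.26 with loess. In the same order the median over all probe sets, −0.47 as deposited, became −0.022, 0.066, 0.16 and −0.0077. Setting the receptor medians of the arrays equal removes most of the receptor difference by construction, so the −0.020 left there says nothing about the groups. The difference in receptor level per array, −0.79, became −0.16 with equal hybridisation controls, −0.25 with median centring and −0.20 with quantiles. The difference in SD among receptors, 0.072, turned to −0.15 with the floor and −0.11 with the pseudocount, and was 0.34 as an interquartile range. The difference in the share above the receptor line, 4.36 points, was 6.59 with Olfr genes only. Leaving out an array kept the receptor median between −0.98 and −0.70.

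Of 43 described probe sets, 14 changed sign under some alternative, in 50 of 617 values. With quantile normalisation, median centring and equal hybridisation controls, in that order, Olfr64 gave 0.018, 0.50 and 0.59, Vmn1r148 0.18, 0.27 and 0.36, Olfr15 0.015, 0.13 and 0.23, Tas2r108 0.30, 0.31 and 0.40, Tas1r2 0.16, 0.13 and 0.22, Vmn2r26 0.20, 0.15 and 0.24, and Olfr1507 0.21, 0.14 and 0.23. Olfr73 gave 0.045 with quantiles and 0.089 with equal controls. With an array left out, the signs were unstable for Olfr64 (−0.45 to 0.44), Olfr15 (−0.65 to 0.0023), Olfr870 (−0.32 to 0.28), Tas2r108 (−0.54 to 0.26), Olfr73 (−1.15 to 0.22), Olfr315 (−0.31 to 0.68), Vmn2r26 (−1.04 to 0.11), Olfr159 (−0.17 to 0.49), Olfr1507 (−0.72 to 0.31), Vmn1r56 (−0.37 to 0.53), Tas2r105 (−0.54 to 0.50) and Olfr78 on its weakest probe set (−1.54 to 0.021). Without a change of sign, the difference ran from 0.34 to 1.53 for Tas1r3, 0.18 to 1.21 for Olfr480, 0.36 to 1.31 for Olfr49 and 0.31 to 1.16 for Vmn1r29, none of which passed limma. No paired analysis was made, because the groups hold different mice and the labels give no pairing between them. Signals near background limit what these probe sets can show.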
